A study of Mus musculus with 6 samples.

Results

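The genes described here make cholesterol and fatty acids. They are 29 genes chosen by name from the deposited table of 55421 genes: 16 enzymes of the mevalonate and sterol pathway, 6 genes of the sterol sensor and sterol transport, and 7 enzymes of fatty acid synthesis. RNA came from B cells of the germinal centre, which divide, mutate their antigen receptor genes and undergo selection in lymphoid follicles. The wildtype group and the SFR KO group held 3 libraries each, all from C57BL/6 AID-GFP reporter mice. In this strain green fluorescent protein marks cells that express AID, the enzyme of antibody gene mutation. Mice were immunised with ovalbumin carrying the hapten NP (ratio 18) in alum, and GFP-positive spleen cells were sorted on day 9. SFR KO mice carry a deletion across 7 genes of SLAM family receptors, from Cd244 to Slamf6, and wildtype mice do not. The labels give neither the age of the mice nor whether each sample is a separate mouse, and p-values reflect variation among the 6 samples alone, which may be technical. The comparison asks which RNAs differ between germinal centre B cells with and without these receptors.

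Cells build cholesterol from acetyl-CoA through mevalonate, squalene and lanosterol, and build fatty acids from the same acetyl-CoA through malonyl-CoA. Transcription factors named SREBPs switch on both branches. SREBPs are held in the endoplasmic reticulum by the escort protein SCAP and the INSIG proteins while sterols are plentiful, and they are released to the nucleus when sterols fall. In B cells, both branches supply membrane for growth and division.

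The 6 libraries held 28269310 to 33053024 reads assigned to genes. The 7 deleted genes together had 22247, 11043 and 10295 reads in wildtype 1, 2 and 3 and 17, 5 and 17 reads in SFR KO 1, 2 and 3, so every library matched its label. Germinal centre B cell markers were abundant in both groups, with a summed level of 358325 to 367053 normalized reads over 12 genes in wildtype and 368314 to 376598 in SFR KO libraries. Markers of other cells were unequal between libraries. The summed level of 12 neutrophil and macrophage genes was 8746, 2307 and 1904 normalized reads in libraries wildtype 1, 2 and 3 against 4162, 1414 and 1914 in SFR KO 1, 2 and 3. Red cell genes were also highest in the first library of each group (8887 in wildtype 1 and 4435 in SFR KO 1, against 1543 to 3233 in the other 4). No listed marker of these 2 kinds was at 0 in any library.

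None of the 29 genes passed the threshold in the comparison of SFR KO with wildtype. The test was limma on log2(normalized count + 1), with Benjamini-Hochberg adjustment over 13562 tested genes, and all 29 genes passed its filter on low values. It called 0 of the 29 at an adjusted p under 0.05, beside a background of 0.465% of all tested genes. The lowest limma adjusted p of the group was 0.159. EdgeR (background 0.221%) and DESeq2 (background 4.53%) called 0 as well, and the authors' deposited table held 0 members with an adjusted p under 0.05 (background 4.8%). At an unadjusted p under 0.05, 3 members were higher in SFR KO libraries (background 7.04%) and 5 were lower (background 9.07%). Groups did not overlap for 7 of the 29 genes, beside a background of 21.7%. Of these 3 were higher in SFR KO (background 9.78%) and 4 lower (background 11.9%). The shares without overlap lie near the background. At an unadjusted p under 0.05 in limma, 8 of the 29 passed in either direction, a share above the background of 16.1%. With 29 genes this rests on few members, and the excess was not tested. Differences were small: 26 of the 29 members had a fitted log2 difference within 0.25 of 0, as had 75.5% of all tested genes. The median absolute log2 difference was 0.12 for the members and 0.12 for all tested genes.

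Levels differed far more between genes than between genotypes. They can be compared between genes only per length, here as normalized reads per kilobase of merged exons. Merged exons join all annotated transcripts of a gene and can be longer than the RNA present. Ranks and ratios between genes depend on this length and are approximate. The highest was Scd1, the desaturase that makes oleate from stearate, at 3826 ± 348 per kilobase in wildtype and 3354 ± 189 in SFR KO (mean ± SD, n = 3 each). Srebf2, the SREBP gene best known for control of sterol synthesis, followed at 2536 ± 92.4 and 2415 ± 79.8 per kilobase. Acly, which splits citrate into acetyl-CoA for both branches, stood at 1835 ± 28 and 1762 ± 65.8 per kilobase. At the other end, Acss2, which makes acetyl-CoA from acetate, stood at 20.1 ± 3.8 and 14.8 ± 0.869 per kilobase, and Tm7sf2, a sterol reductase, at 29.3 ± 2.6 and 35.4 ± 4.79. Among the 16 sterol enzymes of the group, the highest per kilobase was Cyp51, the lanosterol demethylase, at 1056 ± 23.4 in wildtype. Hmgcs1, which makes HMG-CoA at the entry of the pathway, stood at 754 ± 61.6 and Pmvk, the phosphomevalonate kinase, at 705 ± 54.1. Idi1 and Fdps, enzymes of the middle of the pathway, stood at 99.3 ± 15.5 and 97.5 ± 7.75 per kilobase and did not differ beyond their spread.

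**Figure D1:**
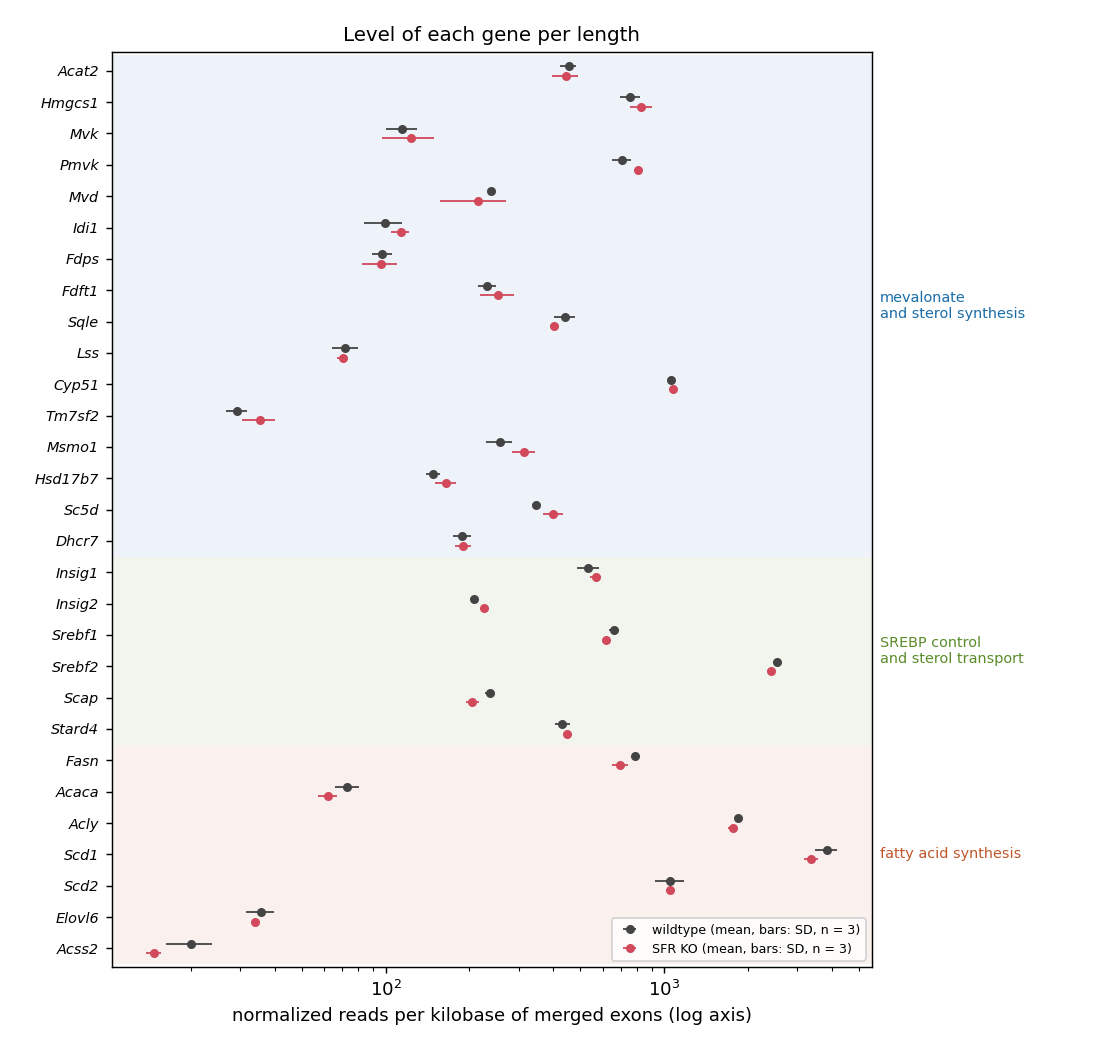
Level of each of the 29 genes in wildtype (grey) and SFR KO (red) as normalized reads per kilobase of merged exons, on a log axis; points are means of 3 libraries and bars are SD. Scd1, Srebf2 and Acly stand highest and Acss2 lowest, and the 2 genotypes lie close together for every gene.

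Paired genes of similar function differed in RNA level per kilobase. Srebf2 was above Srebf1, the SREBP gene best known for control of fatty acid synthesis, by a per-kilobase ratio of 3.84 ± 0.0133 in wildtype and 3.91 ± 0.218 in SFR KO libraries (SD, n = 3 each). Insig1 was above Insig2 by 2.58 ± 0.208 and 2.52 ± 0.0678 per kilobase. Scd1 was above its close relative Scd2 by 3.65 ± 0.127 per kilobase in wildtype and 3.21 ± 0.259 in SFR KO. In single libraries the Scd1 to Scd2 ratio was 3.54, 3.64 and 3.79 in wildtype against 3.5, 3.0 and 3.14 in SFR KO, so that the groups did not overlap; no test of this ratio was made. Scd1 and Scd2 are similar in sequence, and no source used here says how reads that fit both were counted, which leaves their split uncertain.

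Promoter windows from RefSeq (GRCm38.p6), covering the 250 bases before each listed start, matched 23 of the 29 genes. They were searched on both strands for the sterol regulatory element TCACNCCAC, the E-box CACGTG, which SREBPs can also bind, the CCAAT box CCAAT of the partner factor NF-Y, and the GC box GGGCGG. The CCAAT box was found before 18 of the 23 genes (78.3%), against 41.1% of 9640 tested genes with a window. GC boxes were found before 19 (82.6%, against 62.8%) and E-boxes before 5 (21.7%, against 9.92%). TCACNCCAC was found before 1 gene, Hmgcs1 (against 1.18%). Only these letters within the 250 bases were searched, so elements with other letters or further away would be missed. Fdps, Fdft1, Sqle, Stard4, Scd1 and Scd2 had no window. These matches describe letters in the windows and draw no link to a factor. Of the fatty acid genes with a window, 2 of 5 had a CCAAT box (Fasn and Acss2). The 3 windows below are those of the sterol entry enzyme Hmgcs1, with its TCACNCCAC match, the later sterol enzyme Sc5d and the fatty acid enzyme Fasn. Values of Sc5d were higher and those of Fasn lower in SFR KO, and limma called neither. A link between windows and differences was not tested. Capitals mark CCAAT or its reverse ATTGG, TCACNCCAC and CACGTG.
Hmgcs1, plus strand, chr13:119690101-119690350: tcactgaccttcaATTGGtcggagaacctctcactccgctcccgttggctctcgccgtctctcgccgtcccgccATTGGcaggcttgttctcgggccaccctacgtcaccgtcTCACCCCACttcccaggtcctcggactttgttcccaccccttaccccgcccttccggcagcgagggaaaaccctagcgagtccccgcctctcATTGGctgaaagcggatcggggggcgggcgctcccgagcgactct
Sc5d, minus strand, chr9:42264301-42264550: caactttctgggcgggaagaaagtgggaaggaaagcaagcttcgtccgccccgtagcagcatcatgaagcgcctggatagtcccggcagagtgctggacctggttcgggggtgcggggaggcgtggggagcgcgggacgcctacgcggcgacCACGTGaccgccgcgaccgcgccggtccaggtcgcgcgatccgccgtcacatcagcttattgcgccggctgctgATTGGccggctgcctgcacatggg
Fasn, minus strand, chr11:120824548-120824797: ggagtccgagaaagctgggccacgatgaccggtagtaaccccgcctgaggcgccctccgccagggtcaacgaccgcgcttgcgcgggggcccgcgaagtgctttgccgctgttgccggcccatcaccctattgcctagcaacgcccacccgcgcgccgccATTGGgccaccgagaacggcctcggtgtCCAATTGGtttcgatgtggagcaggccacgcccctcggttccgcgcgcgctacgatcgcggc
Hmgcs1 and Fasn have 3 CCAAT matches each, of which 2 overlap in Fasn, and Sc5d has 1 beside 1 E-box.

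Fatty acid synthesis genes had the lower values in SFR KO libraries. Of the 7 enzymes, 6 lay below 0, 4 had an unadjusted p under 0.05, all 4 lower (background 9.07%), and limma called 0. The median log2 difference was -0.18, beside -0.00 for all tested genes. Fasn, the multi-domain synthase that builds palmitate (ENSMUSG00000025153, chromosome 11, 120805846 to 120824547, GRCm38), had 8545, 8532 and 8605 normalized reads in libraries wildtype 1, 2 and 3 against 7112, 7531 and 8125 in SFR KO 1, 2 and 3. All SFR KO values lay below all wildtype values. Its log2 difference was -0.18 ± 0.06 (SE; limma adjusted p = 0.177, unadjusted 0.0109), with a 95% interval of -0.30 to -0.05.

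Acaca encodes acetyl-CoA carboxylase, which commits acetyl-CoA to fatty acids (chromosome 11, 84129672 to 84401651). It had 1276, 1354 and 1110.2 normalized reads in wildtype cells and 1154, 1048 and 984 in SFR KO libraries. SFR KO 1 lay above wildtype 3, so the groups overlapped, and the log2 difference was -0.23 ± 0.09 (limma adjusted p = 0.26). Scd1 (chromosome 19, 44394455 to 44407879) had 19221, 20109 and 16820.1 normalized reads in wildtype cells and 17374, 15532 and 16311 in SFR KO libraries. Here too SFR KO 1 lay above wildtype 3, and the log2 difference was -0.19 ± 0.07 (adjusted p = 0.249). Acss2 (chromosome 2, 155517948 to 155585724) showed the largest fitted difference of the 29 genes, at -0.43 ± 0.16 (adjusted p = 0.241). Its values were 246, 170.3 and 196 normalized reads in wildtype cells and 159.6, 148 and 142 in SFR KO libraries, with groups that did not overlap. It is also among the lowest of the 29 genes, and its wildtype libraries spread more widely than its SFR KO libraries.

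The remaining fatty acid genes lay closer to 0. Acly had 9818, 9714 and 9526 normalized reads in wildtype cells and 9070.2, 9137 and 9703 in SFR KO, with SFR KO 3 inside the wildtype range (log2 -0.06 ± 0.05, adjusted p = 0.592). Scd2 had 6069.6, 6175 and 4958 normalized reads in wildtype cells and 5546, 5786 and 5809 in SFR KO. All 3 SFR KO values fell inside the wildtype range, and the log2 difference was 0.00 ± 0.08 with a 95% interval of -0.18 to 0.18. Elovl6, the elongase that lengthens palmitate to stearate, ranged from 202 to 254 normalized reads over the 6 libraries (log2 -0.06 ± 0.13).

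**Figure D2:**
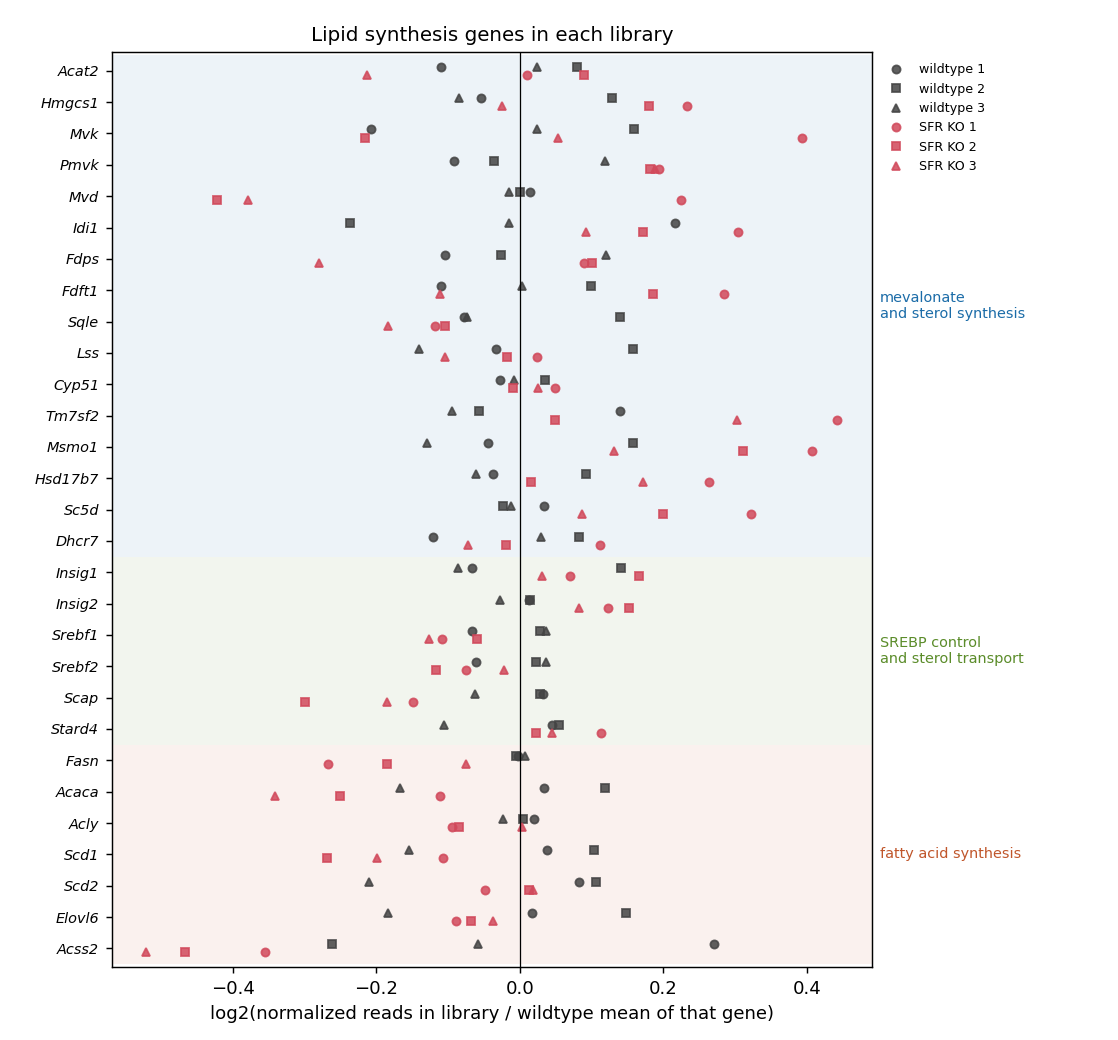
Each library's value of each gene as log2 of normalized reads over the wildtype mean of that gene; grey symbols are wildtype, red symbols SFR KO, and the symbol shape gives the replicate number within its group. Red points lie left of 0 for most fatty acid genes and right of 0 for Pmvk, Msmo1 and Sc5d, and SFR KO 1 (red circles) lies furthest right for many sterol enzymes.

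Sterol pathway enzymes were split, with 11 of 16 fitted values above 0 and a median log2 difference of 0.10. Limma called 0 of the 16, 3 were higher in SFR KO libraries at an unadjusted p under 0.05 (background 7.04%), and 0 were lower at that level (background 9.07%). In the first steps, Hmgcs1 had 3335, 3786 and 3263 normalized reads in libraries wildtype 1, 2 and 3 against 4069.5, 3922 and 3403 in SFR KO 1, 2 and 3. SFR KO 3 lay inside the wildtype range, and the log2 difference was 0.13 ± 0.08 (limma adjusted p = 0.464). Pmvk (ENSMUSG00000027952, chromosome 3, 89454541 to 89469013), which adds the second phosphate to mevalonate, had 1134, 1179 and 1312 in wildtype against 1382, 1371 and 1378 in SFR KO. Its groups did not overlap, and the difference was 0.19 ± 0.07 (adjusted p = 0.226, unadjusted 0.0213; 95% interval 0.04 to 0.35). Other enzymes of these steps had overlapping groups, and no difference between steps was tested. Mvk, the kinase before Pmvk, stood at 0.08 ± 0.16, Mvd, the decarboxylase after it, at -0.19 ± 0.16, Acat2, a thiolase at the start, at -0.04 ± 0.09, and Idi1, the isopentenyl isomerase, at 0.20 ± 0.13.

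The middle of the pathway runs from farnesyl units to the first ring. Fdps, which makes farnesyl diphosphate, and Fdft1, which joins 2 farnesyl units into squalene, stood at log2 differences of -0.03 ± 0.13 and 0.12 ± 0.11. Sqle, the squalene epoxidase and a control point of the pathway (ENSMUSG00000022351, chromosome 15, 59315077 to 59331192), had 2316, 2694 and 2324 normalized reads in wildtype cells and 2253, 2274 and 2153 in SFR KO libraries. All 3 SFR KO values lay below wildtype, by a small margin, and the log2 difference was -0.13 ± 0.07 (limma adjusted p = 0.396, unadjusted 0.0877). Lss, the cyclase that forms lanosterol, stood at -0.03 ± 0.09.

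Steps after lanosterol held the other higher values. Msmo1, a methyl sterol oxidase (ENSMUSG00000031604, chromosome 8, 64718139 to 64733792), had 1528, 1757 and 1440.3 normalized reads in wildtype cells and 2089, 1954 and 1725 in SFR KO. SFR KO 3 lay below wildtype 2, and the log2 difference of 0.29 ± 0.09 was the largest above 0 among the 29 genes (limma adjusted p = 0.186, unadjusted 0.0118; 95% interval 0.08 to 0.50). In the authors' deposited table its adjusted p was 0.0598. Sc5d, the lathosterol desaturase (ENSMUSG00000032018, chromosome 9, 42251595 to 42264256), had 1724, 1658 and 1669.8 in wildtype against 2106, 1933 and 1789 in SFR KO, with groups that did not overlap (log2 0.20 ± 0.07, adjusted p = 0.203). Cyp51 had the smallest error of the 29 genes, at 0.02 ± 0.05, and its 95% interval of -0.08 to 0.13 bounds any difference. Tm7sf2 stood at 0.27 ± 0.16, Hsd17b7, a sterol ketone reductase, at 0.15 ± 0.09 and Dhcr7, the reductase of the last step, at 0.01 ± 0.08.

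The sterol values rested in part on single libraries. SFR KO 1 was the highest of the 3 SFR KO libraries for 13 of the 16 sterol enzymes, against 38.2% of all tested genes, and the lowest for 0. SFR KO 3 was the highest for 0 of the 16 (32.9% over all tested genes). Wildtype 2 was the highest wildtype library for 10 of the 16 (33.6%). The mean log2 deviation of the 16 genes from their 6-library means was -0.07, 0.01 and -0.06 in wildtype 1, 2 and 3 against 0.17, 0.01 and -0.06 in SFR KO 1, 2 and 3, so the groups overlapped. Without SFR KO 1 the median log2 difference of the sterol enzymes was 0.02, and without wildtype 1 it was 0.04. Wildtype 1 and SFR KO 1 were also the libraries with the highest neutrophil and red cell markers in their groups. The part of these cells in the sterol values was not tested.

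**Figure D3:**
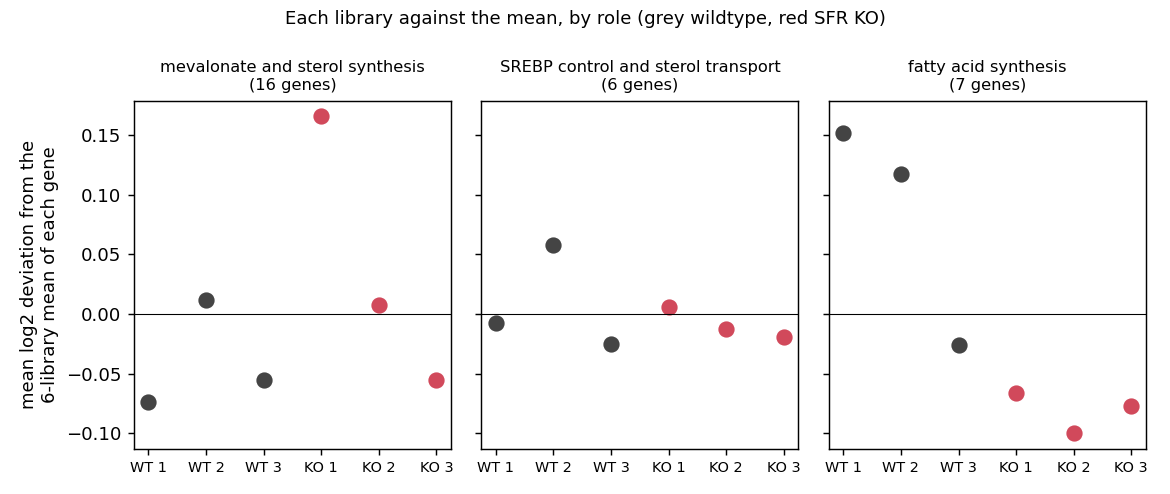
Mean log2 deviation of each library from the 6-library mean of each gene, averaged over the genes of each role (grey wildtype, red SFR KO). SFR KO 1 stands at 0.17 for sterol enzymes and above the other 5 libraries. For fatty acid enzymes all 3 SFR KO libraries stand below all 3 wildtype libraries in this mean. In the median over the fatty acid enzymes, which is not drawn, SFR KO 3 lies above wildtype 3.

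For the 7 fatty acid enzymes the same mean deviation was 0.15, 0.12 and -0.03 in wildtype 1, 2 and 3 against -0.07, -0.10 and -0.08 in SFR KO 1, 2 and 3. The groups did not overlap in this mean, though wildtype 3 stood close to the SFR KO libraries. By the median over the same 7 genes they did overlap. That median deviation was 0.088, 0.113 and -0.048 in wildtype 1, 2 and 3 against -0.054, -0.097 and -0.001 in SFR KO 1, 2 and 3. The median log2 difference of these enzymes lay between -0.18 and -0.13 with any 1 library left out.

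Genes of sterol sensing and transport showed no shared direction, with 3 fitted values above and 3 below 0 and a median log2 difference of -0.00. Scap, the SREBP escort (ENSMUSG00000032485, chromosome 9, 110333288 to 110384950), had 1805, 1799 and 1689 normalized reads in libraries wildtype 1, 2 and 3 against 1591, 1434 and 1552 in SFR KO 1, 2 and 3. Its groups did not overlap, and it had the lowest unadjusted p of the 29 genes (log2 -0.21 ± 0.06, unadjusted p = 0.00833, limma adjusted p = 0.159; 95% interval -0.35 to -0.07). With sample weights in limma, it was the 1 member called (adjusted p = 0.0422), in a fit that called 630 of all tested genes against 63 without weights. Srebf2 had 17459, 18512 and 18686 normalized reads in wildtype cells and 17298, 16808 and 17951 in SFR KO (log2 -0.07 ± 0.05, adjusted p = 0.54). Srebf1 had 3557, 3798 and 3819 in wildtype against 3455, 3573 and 3414 in SFR KO (log2 -0.10 ± 0.05, adjusted p = 0.396). For both SREBP genes 1 SFR KO library lay inside the wildtype range.

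Insig1 and Insig2 hold the SREBP complex in the endoplasmic reticulum, and Insig1 is itself an SREBP target. Insig1 had 1574, 1818 and 1552 normalized reads in wildtype cells and 1730.3, 1849 and 1683 in SFR KO libraries, with overlapping groups (log2 0.09 ± 0.07, adjusted p = 0.594). Insig2 had 725, 725 and 705 in wildtype against 782, 798 and 760.5 in SFR KO libraries. All SFR KO values were higher, by a log2 difference of 0.12 ± 0.07 (adjusted p = 0.434). Stard4, a carrier of cholesterol between membranes, stood at 0.06 ± 0.06.

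**Figure D4:**
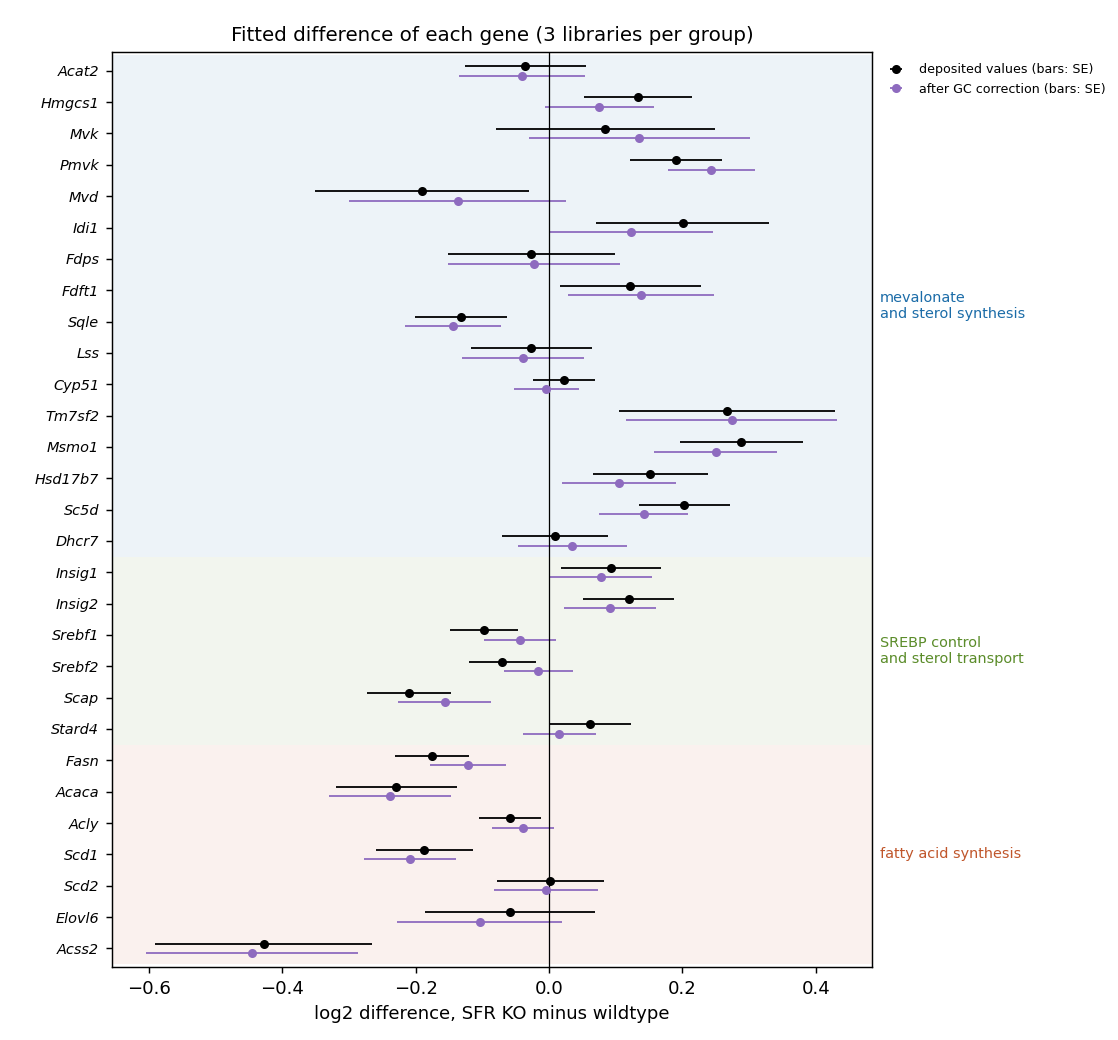
Fitted log2 difference (SFR KO minus wildtype) of each gene with its SE, from the deposited values (black) and after GC correction of every library (purple). Acss2 lies furthest left at -0.43 and Msmo1 furthest right at 0.29, and the correction moves Srebf1, Srebf2, Scap and Fasn toward 0.

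Base composition moved with the differences. Over all tested genes the median log2 difference was 0.13 for transcripts under 40% GC and -0.07 for transcripts of 55% to 60% GC. The Spearman correlation of difference with GC content was -0.27 over all tested genes and -0.46 over the 29 members, which share the same 6 libraries. Among the members with high GC content were Scap (59.1%), Srebf1 (58.4%), Srebf2 (57.9%) and Fasn (57.9%). With each library's GC trend removed, these stood at log2 differences of -0.16 ± 0.07, -0.04 ± 0.05, -0.02 ± 0.05 and -0.12 ± 0.06. Acaca, Scd1 and Acss2, with GC contents of 49.1%, 47.1% and 47.8%, stood at -0.24 ± 0.09, -0.21 ± 0.07 and -0.45 ± 0.16, and Pmvk at 0.24 ± 0.07, all at least as far from 0 as before. Sc5d (42.9% GC) moved to 0.14 ± 0.07 and Msmo1 (44.7%) to 0.25 ± 0.09. The corrected fit called 0 of the 29 members, beside a background of 0.155%, and 5 had an unadjusted p under 0.05 (background 13.8%). The median was then 0.09 for sterol enzymes and -0.12 for fatty acid enzymes. Whether the GC trend arose in the cells or in library preparation was not tested.

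**Figure D5:**
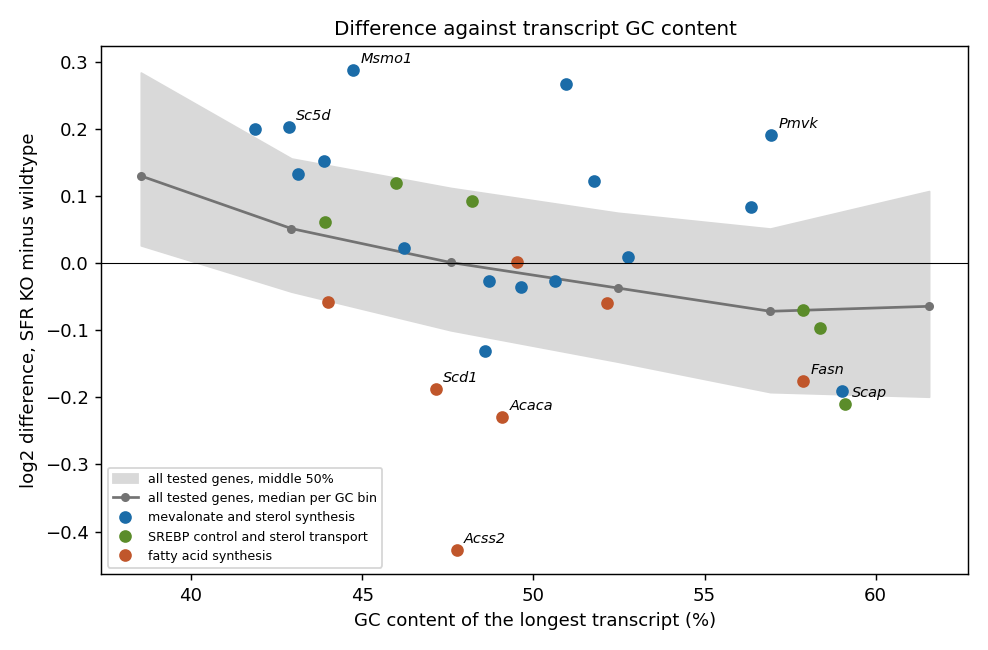
Log2 difference (SFR KO minus wildtype) against GC content of the longest transcript; coloured points are the 29 genes by role, the grey line is the median of all tested genes in 6 GC bins and the band their middle 50%. Msmo1, Sc5d and Pmvk lie above the band and Acss2, Acaca and Scd1 below it, Scap lies just under its lower edge, and Fasn lies inside it.

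Other genes of lipid metabolism gave few differences. In 8 lists of further pathway genes, limma called 0 members. Of 21 tested genes of fatty acid elongation, desaturation and activation, 4 had an unadjusted p under 0.05, all lower (background 9.07%), and DESeq2 called 2 (background 4.53%). These were Fads1 and Fads2, the neighbouring desaturases of polyunsaturated fatty acids on chromosome 19 and known SREBP targets. Fads1 had 895, 880.1 and 905 normalized reads in wildtype cells and 640.5, 695 and 697 in SFR KO libraries. Fads2 had 765, 727 and 695 in wildtype against 581, 543 and 496 in SFR KO libraries. Both genes were lower in every SFR KO library than in every wildtype library. Their log2 differences were -0.40 ± 0.07 (limma adjusted p = 0.0522; DESeq2 0.00352) and -0.43 ± 0.09 (limma adjusted p = 0.0634; DESeq2 0.00731), and -0.38 ± 0.07 and -0.39 ± 0.09 after GC correction. In the authors' deposited table they had adjusted p-values of 0.00368 and 0.0063.

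Of 7 tested further sterol enzymes, 4 had fitted values above 0 and 3 below, with a median log2 difference of 0.004. At an unadjusted p under 0.05, 0 were higher (background 7.04%) and 1 was lower (background 9.07%). Erg28, a scaffold of sterol demethylation, stood at a log2 difference of 0.12 ± 0.06 (adjusted p = 0.352 in limma). Among 15 genes of SREBP processing and degradation, 2 were higher (background 7.04%) and 3 lower (background 9.07%) at an unadjusted p under 0.05. Mbtps2, the site-2 protease that frees SREBPs, stood at 0.21 ± 0.07 (adjusted p = 0.21) and at 0.09 ± 0.07 after GC correction. Syvn1, a ubiquitin ligase of the endoplasmic reticulum, stood at -0.24 ± 0.07 (limma adjusted p = 0.135; DESeq2 0.0158).

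Of 12 tested genes of sterol uptake, storage and lysosomal export, 9 had values below 0 and 3 an unadjusted p under 0.05, all lower (background 9.07%). Scarb1, the receptor for high-density lipoprotein, stood at -0.23 ± 0.10 (limma adjusted p = 0.287) and Lrp8, a lipoprotein receptor, at -0.31 ± 0.13 (adjusted p = 0.291). Among 9 genes of LXR factors, which respond to oxysterols, and sterol efflux, 7 were below 0. Rxrb, a partner of LXR, stood at -0.19 ± 0.05 (adjusted p = 0.133), and the exporter Abca1 at -0.24 ± 0.14 (adjusted p = 0.429). Of the 6 oxysterol genes, 2 had 0 reads in all 6 libraries, Ch25h and Cyp7b1, whose enzymes make the ligand of Gpr183. Gpr183 itself, which guides B cell position, stood at -0.40 ± 0.18 (adjusted p = 0.323) and Hsd3b7 at 0.60 ± 0.42 (adjusted p = 0.533).

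Prenylation genes had 1 of 15 members at an unadjusted p under 0.05 (background 16.1%). It was Icmt, which methylates prenylated proteins, at -0.17 ± 0.06 (limma adjusted p = 0.233), ahead of Rabggta at -0.17 ± 0.08 (adjusted p = 0.322). Of 19 tested genes of fatty acid oxidation, which burns rather than builds fatty acids, 2 were higher and 2 lower at that level (backgrounds 7.04% and 9.07%), with a median log2 difference of 0.03. Hadh, a dehydrogenase of the oxidation cycle, had 1172, 1109.8 and 1259 normalized reads in wildtype cells and 1411, 1381 and 1409.5 in SFR KO libraries (log2 0.25 ± 0.07, limma adjusted p = 0.126). Hadhb, of the trifunctional protein, stood at 0.23 ± 0.07 (adjusted p = 0.145) and at 0.10 ± 0.07 after GC correction.

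Values of markers of other cells and states also differed between the groups, but limma called 0 of those given here (background 0.465%). The lowest limma adjusted p was 0.105 for T cell markers and 0.158 for resting follicular B cell markers. DESeq2 called 1 T cell marker and 0 resting follicular markers (background 4.53%). The median log2 difference of T cell markers was 0.73, and 7 of 10 were higher at an unadjusted p under 0.05 (background 7.04%). Their summed level was 4287 to 4553 normalized reads in wildtype cells and 4669.6 to 6999.9 in SFR KO libraries, most of it Lck, which is also found in B cells. Resting follicular B cell markers stood at a median of -0.30, with 4 of 10 lower and 1 higher at that level (backgrounds 9.07% and 7.04%), and summed to 39179 to 47546 in wildtype and 38093.5 to 43004 in SFR KO. Neither list had a member at 0 in any library. Plasma cell markers summed to 31331 to 32000.4 normalized reads in wildtype and 34246 to 35143 in SFR KO, without overlap, most of it Jchain. Of 6 tested, 2 were higher and 1 lower at an unadjusted p under 0.05 (backgrounds 7.04% and 9.07%). Limma called 0 of these 6 (background 0.465%) and DESeq2 called 1 (background 4.53%). Their median log2 difference was -0.03. In sorted bulk samples, fewer cells of a type and less RNA per cell cannot be told apart, and the part of these cells in the lipid gene values was not tested.

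Reads of some members can be shared with overlapping genes. No source used here gives the strand setting, which bears on overlaps between opposite strands, while overlaps on the same strand remain under any setting. Exons of Fdft1 overlap those of the abundant gene Ctsb, on the opposite strand, over 18.3% of their length. Exons of Tm7sf2 overlap those of Vps51, on the same strand, over 12.1%, which leaves the values of Fdft1 and Tm7sf2 uncertain. Acss2, the gene with the largest fitted difference, shares 395 bases of its exons with Gss (3.89%), 335 with Acss2os (3.3%) and 197 with Ggt7 (1.94%), all on the opposite strand. Gss has a mean of 215 normalized reads, near the level of Acss2 itself. Cyp51 shares 3.76% of its exons with Akap9 and Srebf1 1.93% with Rai1. Fdps shares 1124 bases of its exons (26.7%) with Gm43738 on the same strand, a gene with a mean of 0 normalized reads. No source used here says how reads that fit both were counted, which leaves the level of Fdps uncertain too. Genes overlapping other members had means of at most 15.1 normalized reads.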

How the data were processed

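RNA-seq of 6 libraries was analysed, 3 wildtype and 3 SFR KO, grouped by the genotype in the labels and numbered in accession order. The submitters' processing notes name DESeq2 1.14.1, featureCounts 1.5, STAR 2.5 and build GRCm38; no source used here gives the annotation release or strand setting. For every gene the authors deposited read counts divided by a size factor (a signal, called normalized reads) and their mean. They also deposited a log2 fold change with its standard error, a test statistic (a score), and a p-value with its adjusted p-value. Whole reads were recovered by dividing each library by its smallest value; 100% of values came out whole within a relative tolerance of 1e-06. Libraries of 1 group differed by more than sampling noise (chi-square per gene 6.11 or more).

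The main test was limma 3.58.1 (R 4.3.3; eBayes with a trend, two-sided) on log2(normalized count + 1) for genes whose mean reached 10 normalized reads, adjusted over 13562 genes. Fold changes on this scale understate the change of low genes. Intervals are 95% intervals of limma's moderated statistic. Alternatives were pseudocounts of 0.5 and 5, no filter and a minimum mean of 50, TMM scaling, edgeR 4.0.16 and DESeq2 1.42.0 on recovered reads, sample weights, removal of each library's GC trend (natural spline, 4 degrees of freedom) and each library left out. Positions, exon lengths and GC content came from GENCODE M21 (99.5% of genes matched; GC was known for 99.8% of tested genes). The limma step was run on simulated data with the same spread for every gene and added differences larger than those of most members. That run does not measure the power to call differences as small as those of the members.

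Members and gene lists were chosen with earlier results of these data known. Values in every library are given for members with an unadjusted p under 0.05 or non-overlapping groups and for the controlling and entry genes Srebf1, Srebf2, Insig1, Scap, Hmgcs1, Sqle, Acly, Acaca, Fasn and Scd2. From each further list the called genes, or otherwise the 2 with the lowest p, are named. One gene this rule names is not reported here. Ch25h, Cyp7b1, Lck, Jchain and the genes that overlap members were named after their values were seen. Of the marker lists, red cell markers had a median log2 difference of 0.02, germinal centre B cell markers of -0.01 and neutrophil and macrophage markers of -0.19.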

Additional observations from a re-analysis of the deposited data

How the results depend on the processing

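No member was called under 14 of the 15 alternatives, and with sample weights 1 was (Scap). Among all tested genes, limma called 63; edgeR called 30, DESeq2 483, GC-corrected limma 21, a minimum mean of 50 gave 98, no filter 129 and sample weights 630. With 1 library left out the number ran from 11 (without SFR KO replicate 2) to 501 (without SFR KO replicate 1), and the members called stayed at 0. The median log2 difference moved by less than the spread between libraries in every alternative, from 0.02 to 0.13 for sterol enzymes, -0.18 to -0.12 for fatty acid enzymes and -0.02 to 0.02 for sterol sensing genes.

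Direction held in all 15 alternatives for 21 of the 29 genes, among them every gene with an unadjusted p under 0.05. All 15 reuse the same libraries, so for genes with a small p in these data this adds no independent support. The other 8 lay near 0 and changed sign in 21 of their values. With sample weights, Acat2 stood at 0.0014, Mvk at -0.0848, Fdps at 0.0041 and Dhcr7 at -0.0219. With GC correction Cyp51 stood at -0.0040 and Scd2 at -0.0045, and with DESeq2 Scd2 stood at -0.0020. With 1 library left out, Acat2 ran from -0.0995 to 0.0520, Mvk from -0.0730 to 0.2304, Fdps from -0.0916 to 0.0981, Lss from -0.0946 to 0.0546, Dhcr7 from -0.0499 to 0.0520, Scd2 from -0.1000 to 0.0584 and Elovl6 from -0.1465 to 0.0186. The cause of these sign changes was not tested. The 3 libraries per group limit precision. No paired analysis was possible because the labels give the samples no shared replicate number.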
